A study of Rattus norvegicus with 12 samples.

Results

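The expression of 6 genes of sterol synthesis and its control was followed in the rat choroid plexus during the light and the dark phase. HMGCS1, FDPS, SQLE and MSMO1 encode enzymes of the mevalonate and sterol pathway, INSIG1 encodes a brake on the activators of that pathway, and SREBF1 encodes the activator SREBP-1. They were the members of a list of 7 symbols that were paired with an Ensembl identifier in the supplementary tables of the study. IDI1, the other symbol, had no pairing there and was left out, so that 6 of the 32883 genes listed are described. RNA was sequenced from the choroid plexus (whole tissue, from the lateral and the hindbrain ventricles) of 12 male Sprague-Dawley rats aged 9 weeks, with 1 library per rat. The light phase group was 6 rats sampled at zeitgeber time 8 h, hours counted from the onset of light, and the dark phase group was 6 rats sampled at zeitgeber time 20 h. All rats lived in a 12:12 h light cycle with free access to food and water, and all were anesthetized with xylazine and ketamine before the tissue was taken. Each phase was thus represented by a single time point and by different rats, and the labels give no batch.

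Cells make cholesterol from acetyl-CoA by way of mevalonate, farnesyl diphosphate and squalene. Transcription of the enzymes is switched on by the SREBP proteins, which are made as precursors in the membrane of the endoplasmic reticulum. When sterols are scarce, SCAP escorts the precursors to the Golgi, where proteases release the active fragment; when sterols are ample, INSIG proteins hold SCAP back. SREBF2 encodes SREBP-2, the form most tied to cholesterol synthesis, and the SREBF1 products act mainly on fatty acid synthesis and on sterol genes as well. INSIG1 is itself a target of the SREBPs, and SREBF1 is also switched on by the oxysterol receptors of the LXR family.

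The 250 bases before the start site of the sterol genes are shown because these genes lay low together in 1 library, as described below. They were taken from the promoter table of RefSeq on GRCr8, a later build than the Rnor_6.0 used for the expression values, and run 5′ to 3′ on the strand of the gene. Capitals mark the box CCAAT, which binds NF-Y, a partner of the SREBPs, or its reverse complement ATTGG.
Hmgcs1 (chr2:53382054-53382303, plus strand): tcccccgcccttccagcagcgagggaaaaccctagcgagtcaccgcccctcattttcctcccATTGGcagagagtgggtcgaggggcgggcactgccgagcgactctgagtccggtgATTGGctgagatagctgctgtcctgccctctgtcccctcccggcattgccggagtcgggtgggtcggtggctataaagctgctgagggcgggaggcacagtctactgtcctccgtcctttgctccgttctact
Fdps (chr2:176804817-176805066, minus strand): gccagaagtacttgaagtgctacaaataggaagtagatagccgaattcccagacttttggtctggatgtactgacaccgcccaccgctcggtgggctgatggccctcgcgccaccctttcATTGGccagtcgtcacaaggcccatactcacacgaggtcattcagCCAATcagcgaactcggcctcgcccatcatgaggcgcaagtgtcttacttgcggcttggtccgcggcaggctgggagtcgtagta
Msmo1 (chr16:29746863-29747112, plus strand): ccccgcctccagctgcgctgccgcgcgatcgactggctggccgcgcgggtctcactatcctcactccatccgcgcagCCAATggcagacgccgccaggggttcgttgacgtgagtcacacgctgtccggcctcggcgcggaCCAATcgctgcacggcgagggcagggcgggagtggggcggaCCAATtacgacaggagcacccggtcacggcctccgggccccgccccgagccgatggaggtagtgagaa
Insig1 (chr4:8057770-8058019, minus strand): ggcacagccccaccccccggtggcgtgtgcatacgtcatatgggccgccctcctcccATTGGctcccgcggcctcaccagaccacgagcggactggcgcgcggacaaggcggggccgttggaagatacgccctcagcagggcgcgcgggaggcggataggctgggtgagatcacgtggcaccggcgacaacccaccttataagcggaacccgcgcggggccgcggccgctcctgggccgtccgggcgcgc
The table held 6 windows for 5 of the genes, with a pair of start sites for Srebf1, and had no entry for Sqle. Over windows of 300 bases (250 before and 50 after the start site) and both strands, CCAAT was found in 6 of 6, against 37.5% of the 33469 promoters in the table. In the 4 sequences printed, its first base lay between position -68 and position -193 relative to the start site. GGGCGG, the core of an Sp1 box, was also found in 6 of 6 windows, against 33.1% of all promoters. The E-box CACGTG was found only in the Insig1 window, at position -79, against 6.42% of all promoters. The letters TCACNCCAC, 1 form of the sterol regulatory element, were found in 0 of 6 windows and in 1.12% of all promoters. GTGACGT was found in 0 of 6 windows (3.73% of all promoters) and TGACGTCA, which overlaps with it, in 0 of 6 (1.83%). These are matches of letters and not sites of binding, and the shares over all promoters were not matched for expression or base composition.

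Expression is given as TPM, the share of transcripts scaled to a fixed total per library and corrected for gene length, so that levels of different genes can be set side by side. How many reads stand behind a value is not known. In the dark phase, the order of the mean levels was SREBF1, FDPS, MSMO1, HMGCS1, SQLE and INSIG1. The lowest and the highest dark libraries of neighbors in this order did not overlap, except for SREBF1 (90.0 to 104 TPM) and FDPS (78.8 to 92.5 TPM). In the light phase, the library of replicate 2 apart, the order was FDPS, MSMO1, SREBF1, HMGCS1, INSIG1 and SQLE, from a mean of 94.5 TPM down to 56.0 TPM, and the ranges of all neighbors overlapped. SREBF1 lay below FDPS in each of these 5 light libraries and above it in each of the 6 dark libraries.

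The library of light replicate 2 stood apart from the other light libraries, and each result is therefore given with and without it. In 605 of the 12513 genes tested (4.83%), this library lay alone at 1 end of the light group, with a gap to the nearest light library above Dixon's limit for 6 values. The other 11 libraries did so in 70 to 160 genes (0.559% to 1.28%). In 1400 genes the other 5 light libraries did not overlap with the dark libraries, and in 1096 of these (78.3%) light replicate 2 lay on the side of its own phase. In 61 genes (4.36%) it lay beyond all dark libraries, on the far side from its own phase, and 5 of these were genes described here. The other, FDPS, was not among the 1400. Markers of other tissue components differed in it as well. The summed hemoglobin genes HBA-A2 and HBB, 2 of 6 blood markers with a pairing, were at 12490 TPM in light replicate 2, 3178 to 4192 TPM in the other light libraries and 1848 to 4808 TPM in the dark libraries. The 9 choroid plexus epithelium markers, all paired, summed to 259500 TPM in light replicate 2, 305900 to 310300 TPM in the other light libraries and 292900 to 316000 TPM in the dark libraries, so that the tissue of the label was present throughout. Nearly all of this sum was transthyretin (TTR), at 253710 TPM in light replicate 2 and 299818 to 304180 TPM in the other light libraries. Of the other 8 epithelium markers, 5 lay within the range of the other light libraries and 3 (FOLR1, KCNJ13 and OTX2) below it, and all 8 were at 0.914 to 1.04 times the mean of those libraries. The macrophage marker CD74, 1 of 7, was at 392 TPM in light replicate 2, 209 to 295 TPM in the other light libraries and 195 to 379 TPM in the dark libraries. FLT1 and PLVAP, 2 of 6 endothelial markers, summed to 139 TPM in it, 71.4 to 84.4 TPM in the other light libraries and 72.1 to 113 TPM in the dark libraries. The fibroblast marker DCN, 1 of 8, was at 74.1 TPM in it, 86.3 to 147 TPM in the other light libraries and 81.6 to 155 TPM in the dark libraries. Of the ependymal markers, 2 of 6, RSPH1 was at 69.4 TPM in light replicate 2 and 73.4 to 82.3 TPM in the other light libraries, while CFAP126 lay within the range of the other light libraries. Astrocyte and neuron markers had no pairing, and no paired marker was at 0 in all libraries. The part of these differences in the results below was not tested, and in whole tissue fewer cells of a type and less RNA per cell cannot be told apart.

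SREBF1 (ENSRNOG00000003463) lay higher in each of the 6 dark libraries than in 5 of the 6 light libraries. Across light libraries it ranged from 60.5 TPM through a median of 69.4 TPM to 124 TPM, and across dark libraries from 90.0 TPM through a median of 96.2 TPM to 104 TPM. The highest of all 12 values was that of light replicate 2, and the other 5 light libraries, 60.5 to 74.5 TPM, lay below all dark libraries. The light mean was 77.2 ± 23.4 TPM (SD, n = 6) and the dark mean 96.1 ± 4.77 TPM (SD, n = 6). The log2 fold change, dark against light, was 0.34 (SE 0.12) and did not pass the test (limma, FDR = 0.0700). The study, which used DESeq2 on read counts, did list SREBF1 among its differentially expressed genes. The other 5 genes were not found in that list as far as it was held here. Without light replicate 2 the light mean was 67.8 ± 5.42 TPM (SD, n = 5), and SREBF1 was 1.38-fold higher in the dark phase (log2 fold change 0.47, SE 0.04, limma FDR = 2.98e-05).

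INSIG1 (ENSRNOG00000006859) lay lower in each of the dark libraries than in 5 of the 6 light libraries. Across light libraries it ranged from 18.6 TPM through a median of 60.7 TPM to 65.7 TPM, and across dark libraries from 34.7 TPM through a median of 37.8 TPM to 41.4 TPM. Light replicate 2 was the lowest of the 12 libraries, and the other light libraries, 56.1 to 65.7 TPM, lay above all dark libraries. The light mean was 54.6 ± 18.1 TPM (SD, n = 6) and the dark mean 37.9 ± 2.41 TPM (SD, n = 6), with a log2 fold change of -0.43 (SE 0.27) that did not pass the test (limma, FDR = 0.308). The light mean without light replicate 2 was 61.8 ± 4.70 TPM (SD, n = 5), and INSIG1 was 1.66-fold higher in light than in dark libraries (log2 fold change -0.73, SE 0.07, limma FDR = 3.03e-05).

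**Figure D1:**
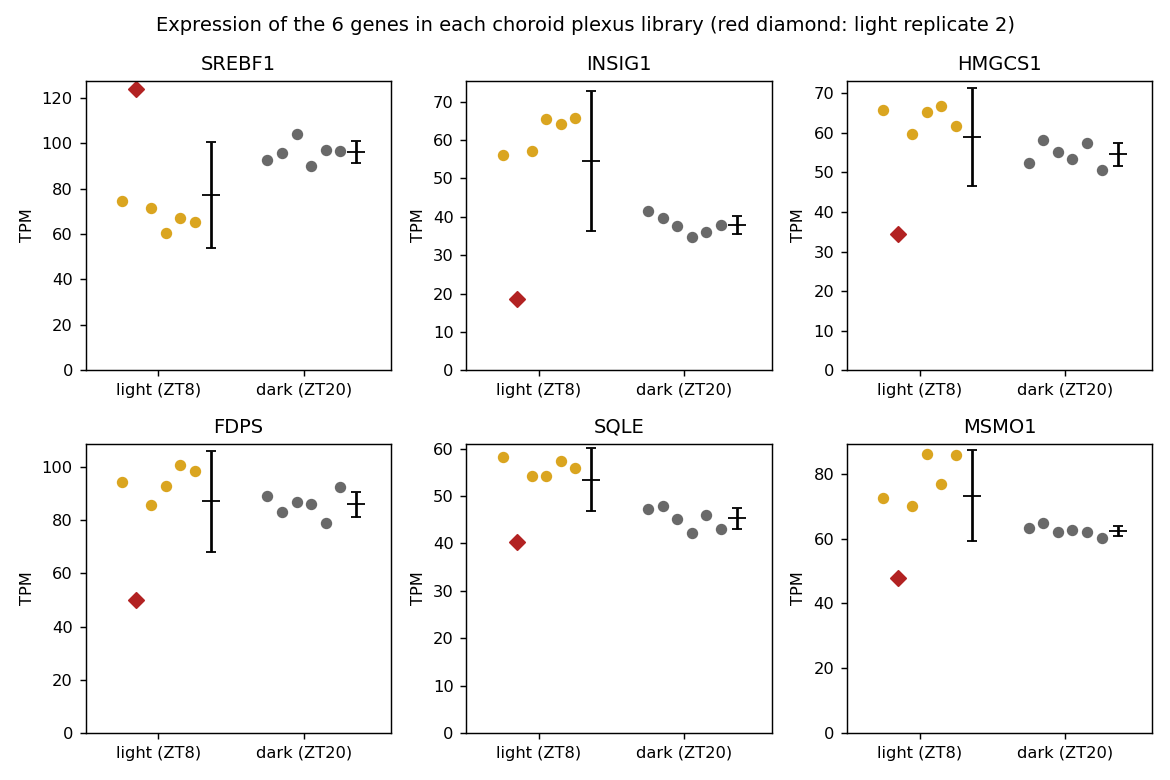
TPM (y axis, from 0) of each gene in the 6 light and the 6 dark libraries, 1 point per rat in the order of replicate number, with the mean and SD of each phase as bars at the right of each group. Light replicate 2 (red diamond) is the highest library for SREBF1, at 124 TPM, and the lowest for the other 5 genes, for example at 18.6 TPM for INSIG1.

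HMGCS1 (ENSRNOG00000016552) makes HMG-CoA, an early intermediate of the pathway. It ranged from 34.4 TPM through a median of 63.5 TPM to 66.7 TPM across light libraries and from 50.7 TPM through 54.2 TPM to 58.2 TPM across dark libraries. The means were 59.0 ± 12.3 TPM (SD, n = 6) and 54.6 ± 2.96 TPM (SD, n = 6), with a log2 fold change of -0.09 (SE 0.15, limma FDR = 0.713). The lowest library was again light replicate 2, and the other light libraries (59.9 to 66.7 TPM) did not overlap with the dark ones. In its absence HMGCS1 was 1.20-fold higher in light than in dark libraries (log2 fold change -0.26, SE 0.05, limma FDR = 0.00455).

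FDPS (ENSRNOG00000043377) makes farnesyl diphosphate, the branch point between sterols and other isoprenoids. Its levels ranged from 49.9 TPM through 93.7 TPM to 101 TPM across light libraries and from 78.8 TPM through 86.5 TPM to 92.5 TPM across dark libraries. Its means were 87.1 ± 18.9 TPM (SD, n = 6) and 86.1 ± 4.70 TPM (SD, n = 6). With all libraries the log2 fold change was 0.0036 (SE 0.15, limma FDR = 0.992). It was -0.17 (SE 0.05, limma FDR = 0.0481) without light replicate 2, a 1.12-fold higher level in the light phase close to the threshold. FDPS was the gene whose phases overlapped in either case, since 1 of the other light libraries (85.9 TPM) lay within the dark range.

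SQLE (ENSRNOG00000009550) encodes squalene epoxidase, which acts on squalene. It ranged from 40.2 TPM through 55.1 TPM to 58.2 TPM across light libraries and from 42.1 TPM through 45.6 TPM to 47.9 TPM across dark libraries, so that light replicate 2 lay just below the dark libraries. The means were 53.4 ± 6.66 TPM (SD, n = 6) and 45.3 ± 2.30 TPM (SD, n = 6), with a log2 fold change of -0.24 (SE 0.09, limma FDR = 0.0864). The spread of the other 5 light libraries was narrow, at 56.0 ± 1.80 TPM (SD, n = 5), and without light replicate 2 SQLE was 1.26-fold higher in light than in dark libraries (log2 fold change -0.34, SE 0.04, limma FDR = 0.000202).

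MSMO1 (ENSRNOG00000032297) encodes the oxidase that removes methyl groups from carbon 4 of the sterol ring. It ranged from 47.9 TPM through 74.7 TPM to 86.2 TPM across light libraries and from 60.1 TPM through 62.3 TPM to 64.7 TPM across dark libraries. The dark libraries differed little among themselves (62.4 ± 1.51 TPM, SD, n = 6), and the light mean was 73.2 ± 14.1 TPM (SD, n = 6). The log2 fold change was -0.22 (SE 0.13, limma FDR = 0.285) with all libraries. It was -0.35 (SE 0.07, limma FDR = 0.00465) without light replicate 2, a 1.28-fold higher level in the light phase.

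With all 12 libraries, therefore, 0 of the 6 genes passed the test (limma, FDR below 0.05), where 17.7% of the 12513 genes tested did. At an unadjusted p below 0.05 the count was 2 of 6, SREBF1 and SQLE, against 30.6% of all genes. The phases overlapped in all 6 genes, while they did not overlap in 8.76% of all genes (5.1% higher in dark and 3.66% higher in light libraries). When limma gave each library a weight by its distance from the others, 3 of 6 passed against 19.4% of all genes, with SREBF1 higher in dark libraries (10.4% of all genes) and SQLE and INSIG1 higher in light libraries (8.99% of all genes). Light replicate 2 received a weight of 0.411 and the other libraries 0.959 to 1.39. Without light replicate 2, 6 of 6 genes passed against 17.9% of 12479 genes. Of these, SREBF1 rose in dark libraries (9.39% of all genes) and the 5 sterol genes rose in light libraries (8.55% of all genes). The phases then did not overlap in 5 of 6 genes, against 11.2% of all genes, with SREBF1 higher in dark libraries (6.1% of all genes) and the other 4 higher in light libraries (5.09% of all genes). Leaving out any of the other 11 libraries gave 0 of 6 in each fit, with an FDR from 0.0902 to 0.135 for SREBF1, 0.0897 to 0.173 for SQLE and 0.341 to 0.482 for INSIG1. The median log2 fold change of all genes was -0.0057 with and without the library. Summed FPKM over summed TPM, a value per library that depends on how long its transcripts are, was 0.953 in light replicate 2, 0.961 to 0.987 in the other light libraries and 0.934 to 0.960 in the dark libraries, and so moved with the phase. With it as a covariate 0 of 6 genes passed against 2.75% of all genes, and the log2 fold changes of SREBF1 (-0.0035), INSIG1 (0.27), HMGCS1 (0.34) and MSMO1 (0.19) turned sign. With the covariate and light replicate 2 left out, 2 of 6 passed against 1.05% of all genes, SREBF1 at 0.35 (limma FDR = 0.0494) and INSIG1 at -0.62 (limma FDR = 0.0461).

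**Figure D2:**
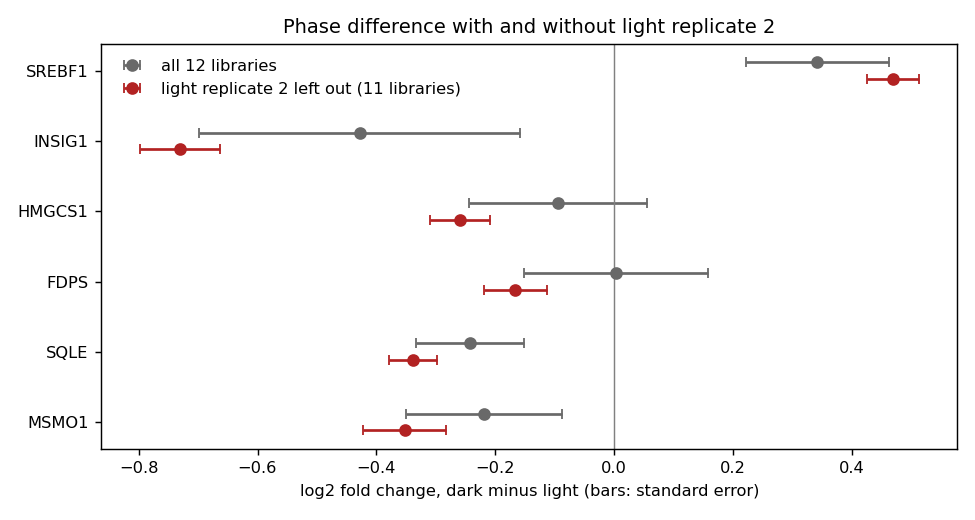
Log2 fold change, dark minus light (x axis), of the 6 genes from limma, with the standard error as bars, for all 12 libraries (grey) and for the 11 libraries without light replicate 2 (red). The bars are shorter without it, and the value of FDPS moves from 0.0036 to -0.17.

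Light replicate 2 did not lie among the dark libraries in these genes, but beyond all of them in each of the 6. SREBF1 was 1.83-fold higher in it than the mean of the other light libraries and 1.29-fold higher than the dark mean. INSIG1 was 3.33-fold lower in it than the mean of the other light libraries and 2.04-fold lower than the dark mean. FDPS was 1.90-fold lower than in the other light libraries, HMGCS1 1.85-fold, MSMO1 1.63-fold and SQLE 1.39-fold. Against the dark mean these 4 genes were lower by 1.13-fold (SQLE) to 1.73-fold (FDPS). The difference was thus largest in INSIG1 and smallest in SQLE.

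The spread between rats shows the same library. The SD of log2 TPM was larger in the light phase than in the dark phase by 8.58 times for INSIG1, 7.36 times for MSMO1, 5.53 times for FDPS, 4.85 times for SREBF1, 4.66 times for HMGCS1 and 3.17 times for SQLE. Of all genes tested, 0.072% reached the ratio of INSIG1 and 2.96% that of SQLE. The median ratio was 5.19 over the 6 genes and 1.12 over all genes, and fell to 1.23 and 0.991 without light replicate 2. MSMO1 kept a ratio of 3.61 without the library, and SQLE then had a ratio of 0.525. The dark libraries held these genes within a coefficient of variation of 2.42% (MSMO1) to 6.36% (INSIG1).

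**Figure D3:**
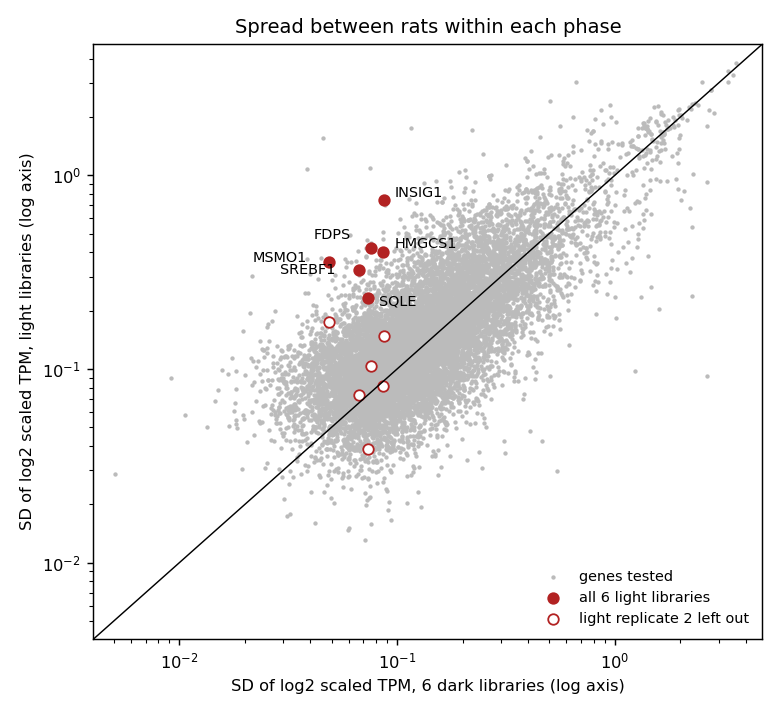
SD of log2 TPM between the 6 light libraries (y axis, log scale) against that between the 6 dark libraries (x axis, log scale), 1 grey point per gene tested, with the line of equal spread. The 6 genes (filled red) lie above the line, INSIG1 by 8.58 times, and lie lower when light replicate 2 is left out (open red), with MSMO1 still 3.61 times above the line and SQLE below it at 0.525.

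Ratios within a library, which no scaling between libraries can change, were set side by side after the values had been seen. The ratio of SREBF1 to INSIG1 was 0.924 to 1.33 in 5 light libraries and 2.24 to 2.77 in the dark libraries, and it was 6.68 in light replicate 2. SREBF1 to FDPS was 0.651 to 0.833 in the 5 light libraries, 1.04 to 1.23 in the dark libraries and 2.49 in light replicate 2. INSIG1 to FDPS was 0.595 to 0.705 in the 5 light libraries, 0.404 to 0.476 in the dark libraries and 0.372 in light replicate 2. For all of these ratios the 5 light libraries did not overlap with the dark ones, and light replicate 2 lay beyond the dark range. For SREBF1 to INSIG1 this followed from the levels of both genes given above and is not a further result. For SREBF1 to SREBF2, given below, the 5 light libraries did overlap with the dark ones.

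**Figure D4:**
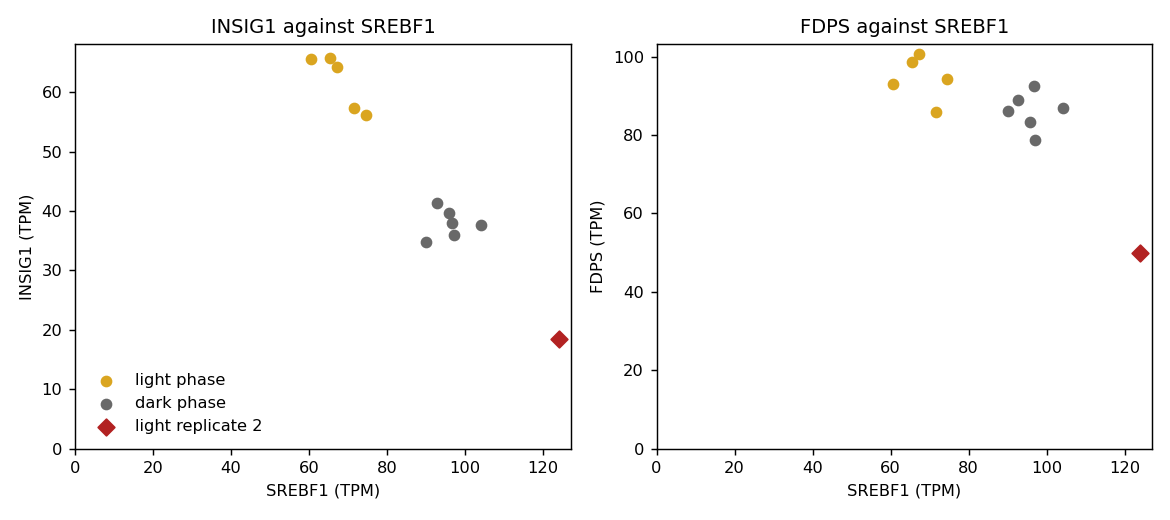
INSIG1 (left) and FDPS (right) against SREBF1, all in TPM on axes from 0, 1 point per rat for the light phase (yellow), the dark phase (grey) and light replicate 2 (red diamond). In the left panel, the 5 other light libraries lie at 60.5 to 74.5 TPM of SREBF1 and 56.1 to 65.7 TPM of INSIG1, the dark libraries lie below and to the right of them, and light replicate 2 lies farther along the same direction.

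Across rats, deviations from the phase means were related over the 12 libraries, in 15 pairs of genes. The 10 pairs among the 5 sterol genes had a Pearson r of 0.904 to 0.975 and a Spearman rho of 0.566 to 0.895. The 5 pairs of SREBF1 with a sterol gene had an r of -0.972 to -0.910 and a rho of -0.797 to -0.601. In a two-sided permutation test within phases, adjusted over the 15 pairs, 11 pairs passed by r and 6 by rho. For SREBF1 with INSIG1, r was -0.972 (permutation p = 0.00764, adjusted p = 0.0143) and rho -0.797 (permutation p = 0.0309, adjusted p = 0.0580). For MSMO1 with INSIG1, r was 0.948 (permutation p = 0.00153, adjusted p = 0.0119) and rho 0.678 (permutation p = 0.00917, adjusted p = 0.0275). These relations rested on light replicate 2. Without it 0 of 15 pairs passed by either measure, with r from -0.0065 to 0.804 (median 0.528) among the sterol genes and from -0.642 to -0.0553 for SREBF1. MSMO1 with INSIG1 kept the highest r, 0.804 (adjusted permutation p = 0.150). When the 2 libraries farthest from the median of the first gene were left out, r for SREBF1 with INSIG1 was -0.435 and for MSMO1 with INSIG1 0.736, and 2 of the 5 pairs with SREBF1 turned positive. In the 6 dark libraries alone r ranged from -0.758 to 0.713 among the sterol genes and from -0.149 to 0.330 for SREBF1.

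The genes whose deviations were most like the mean of the 5 sterol genes were sought, over the 12 libraries, among 9253 genes whose mean reached 5 TPM. The 5 genes are part of that mean, so that their own place near the top was favored by construction. Set against the mean of the other 4, with those 4 left out of the ranking, they had an r of 0.942 (MSMO1, rank 9) to 0.989 (INSIG1, rank 2) with all libraries, and of 0.367 (FDPS, rank 2083) to 0.797 (INSIG1, rank 73) without light replicate 2. Among the first 10 places, 4 were held by genes outside the mean whose identifier was not paired with a symbol here. Of these, ENSRNOG00000009946 (r = 0.993) and ENSRNOG00000007234 (r = 0.988) came first. SREBF2 was at rank 11 (r = 0.952), and SREBF1 stood at rank 9251 (r = -0.965), close to the opposite end. Without light replicate 2, SREBF2 was at rank 148 (r = 0.754) and SREBF1 at rank 8360 (r = -0.499). For SREBF1 itself none of the 9 genes beside it in the first 10 was paired with a symbol here. ENSRNOG00000018126 came first (r = 0.981, and 0.782 without light replicate 2). INSIG1 and FDPS were the 2 genes of lowest r with SREBF1 among the 9253, at -0.972 and -0.957. They did not keep these places without light replicate 2, with INSIG1 at rank 8653 (r = -0.572) and FDPS at rank 8056 (r = -0.46).

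Other genes of lipid metabolism were taken from 6 lists of 87 symbols in all, of which 31 had an identifier and 25 were not among the 6 genes above. For 13 of these 25 the symbol was known only through the tables of genes that the study had called on these rats, so that their counts and directions are not independent evidence. Of the 25, 7 rose in dark and 2 in light libraries with all rats included (limma, FDR below 0.05), and 6 and 5 without light replicate 2. Of the 12 with a symbol from the table of expression levels, 1 rose in dark and 0 in light libraries, against 9.64% and 8.08% of all genes, and 1 and 3 without light replicate 2. That table as held here covered 1997 genes, with no mean below 33.5 TPM.

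Among the enzymes of the mevalonate and sterol pathway, 7 of 22 symbols were paired, 1 rose in dark and 0 in light libraries, with a median log2 fold change of -0.08. The counts were 1 and 5 without light replicate 2, and the median was -0.26. The shares of all genes were 9.64% in dark and 8.08% in light libraries, and 9.39% and 8.55% without light replicate 2. These counts include the 4 enzymes described above, and so in part repeat them. PMVK, a kinase of the mevalonate steps, had a light mean of 18.7 ± 1.73 TPM and a dark mean of 24.4 ± 2.22 TPM (SD, n = 6), and rose in the dark phase (log2 fold change 0.36, SE 0.08, limma FDR = 0.0106; without light replicate 2 0.30, FDR = 0.0122). SC5D, a desaturase late in the pathway, gave 0.17 (limma FDR = 0.180). Without light replicate 2, PMVK was thus higher in dark libraries and the 4 enzymes described above were higher in light libraries. The symbols of PMVK and SC5D were known only through the genes that the study had called, those of the 4 enzymes through the table of expression levels. In light replicate 2, PMVK was at 15.8 TPM (18.1 to 20.7 TPM in the other light libraries) and SC5D at 15.7 TPM (19.1 to 21.7 TPM). Both were thus low there, like the 4 enzymes.

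Among the genes of SREBP control, 7 of 13 were paired, with a median log2 fold change of 0.12. Of these 7, 1 rose in dark and 0 in light libraries, against 9.64% and 8.08% of all genes. Without light replicate 2 SREBF1 was the gene called higher in dark libraries and INSIG1 that in light libraries, and the median was 0.10. The shares of all genes were then 9.39% and 8.55%. SREBF2 was at 13.6 TPM in light replicate 2, 18.2 to 23.1 TPM in the other light libraries and 21.0 to 23.7 TPM in the dark libraries. In light replicate 2 it was therefore low, like the sterol genes and unlike SREBF1. Its log2 fold change was 0.22 (SE 0.11, limma FDR = 0.205), and 0.10 (FDR = 0.248) without light replicate 2. The ratio of SREBF1 to SREBF2 was 2.83 to 3.93 in 5 light libraries, 3.92 to 4.64 in the dark libraries and 9.10 in light replicate 2, so that the 5 light libraries overlapped with the dark ones. MARCHF6, a ubiquitin ligase of the endoplasmic reticulum that acts on squalene epoxidase, was higher in the dark phase with all libraries (log2 fold change 0.13, limma FDR = 0.0477), with an FDR of 0.0535 without light replicate 2. The symbols of SREBF2 and MARCHF6 were known only through the genes that the study had called. The study thus listed SREBF2, which did not pass the test here, among its differentially expressed genes. SCAP and INSIG2 had no pairing, and no values are given for them.

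Of the genes of sterol uptake and trafficking, 4 of 13 were paired, and 1 rose in dark and 2 in light libraries, with and without light replicate 2 (median log2 fold change -0.10 and -0.11). The shares of all genes were 9.64% in dark and 8.08% in light libraries, and 9.39% and 8.55% without light replicate 2. The scavenger receptor SCARB1, which takes up sterols from HDL, had a light mean of 18.0 ± 1.43 TPM and a dark mean of 13.5 ± 1.13 TPM (SD, n = 6; log2 fold change -0.42, SE 0.07, limma FDR = 0.00208), with no overlap. VLDLR, a lipoprotein receptor, was also higher in the light phase (-0.20, FDR = 0.0185). LRP1, another receptor of the family, was higher in the dark phase (0.30, FDR = 0.000460), with no overlap. Light replicate 2 lay at 17.9 TPM for SCARB1 and 58.4 TPM for LRP1, on the side of its own phase. The symbols of SCARB1 and VLDLR were known only through the genes that the study had called, and LRP1 was among those genes as well.

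Of the genes of fatty acid synthesis, 7 of 17 were paired, and 2 rose in dark and 0 in light libraries (median log2 fold change -0.03). They were ACACA, acetyl-CoA carboxylase (0.30, limma FDR = 0.000517), and GPAM, which starts triglyceride synthesis (0.30, FDR = 0.00891). The symbols of both were known only through the genes that the study had called on these rats. Of the 5 list genes with a symbol from the table of expression levels, 0 passed in either direction. Over all genes, 9.64% rose in dark and 8.08% in light libraries. The counts for all 7 genes without light replicate 2 were 2 and 2 and the median -0.07. The 2 then higher in the light phase were the desaturases FADS1, at 377 to 408 TPM in 5 light libraries, 315 TPM in light replicate 2 and 317 to 352 TPM in the dark libraries (-0.21, FDR = 0.0768 with it and -0.28, FDR = 0.00191 without it), and SCD2 (-0.08, FDR = 0.493 and -0.14, FDR = 0.0283). FADS1 thus shared with the 5 sterol genes a low value in light replicate 2, whereas ACACA, at 8.99 TPM there and 7.24 to 8.42 TPM in the other light libraries, lay above them.

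Of the genes of sterol efflux and storage, 2 of 11 were paired and 0 passed in either direction, with a median log2 fold change of -0.0046, and 0.09 without light replicate 2. APOE, the carrier of sterols between cells, was at 561 TPM in light replicate 2, 193 to 300 TPM in the other light libraries and 217 to 302 TPM in the dark libraries. It was 2.51-fold higher in that library than in the other light libraries, the same direction as SREBF1. NR1H2, an oxysterol receptor, was at 57.2 TPM in light replicate 2 and 53.3 to 59.7 TPM in the other light libraries (log2 fold change 0.06, limma FDR = 0.375). In the isoprenoid branch, which uses the product of FDPS, 4 of 11 were paired, and 2 rose in dark and 0 in light libraries with and without light replicate 2 (median log2 fold change 0.18 and 0.17). They were NUS1, for dolichol synthesis (0.25, limma FDR = 0.000745), and PDSS2, for coenzyme Q synthesis (0.20, FDR = 0.0264). RABGGTB gave 0.17 (FDR = 0.110). The symbols of all 4 paired genes of the isoprenoid branch were known only through the genes that the study had called on these rats. Their counts and medians were therefore favored by how they were picked. Over all genes, 9.64% rose in dark and 8.08% in light libraries with all rats included.

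**Figure D5:**
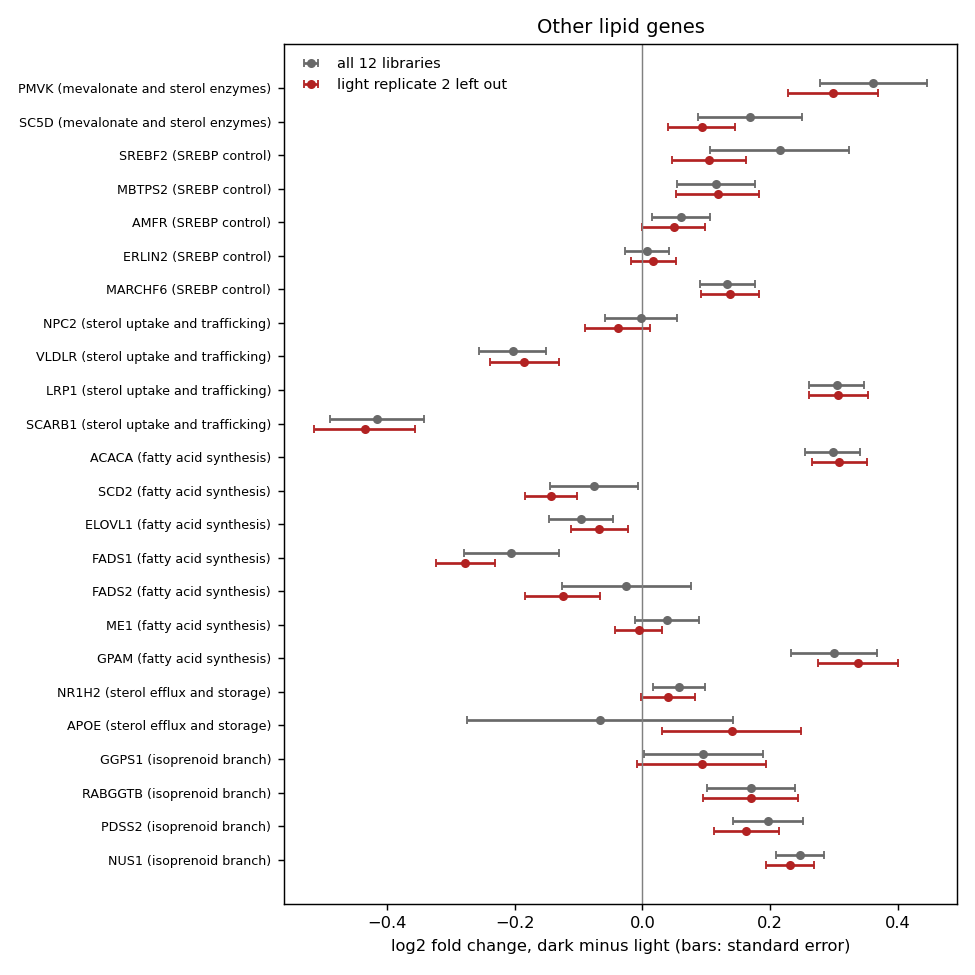
Log2 fold change, dark minus light (x axis), of other lipid genes with an identifier, grouped by list, from limma with the standard error as bars, for all 12 libraries (grey) and without light replicate 2 (red). APOE moves from -0.07 to 0.14 and FADS1 from -0.21 to -0.28, while LRP1 and ACACA keep values of 0.30 to 0.31.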

How the data were processed

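The choroid plexus of 12 rats was sequenced for the authors by Novogene with a NEB Next Ultra RNA kit. Per the labels and the methods of the study, reads were mapped to Rnor_6.0 with STAR 2.7.9a and quantified with RSEM 1.3.3, and the authors deposited TPM and FPKM for 32883 genes in each library. The differential expression of the study was based on read counts and DESeq2, which were not used here. The labels give an output of 12 Gb of paired-end sequence. The reads behind each value are not known, so that errors are the spread between rats.

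Here, TPM were scaled by a trimmed mean of ratios (30% of ratios and 5% of levels trimmed), transformed as log2(TPM + 0.5) and tested with limma 3.58.1 in R 4.3.3 (trend, phase alone) over the 12513 genes whose mean reached 1 TPM, with Benjamini-Hochberg adjustment (FDR) and a threshold of 0.05. Fold changes are on this scale, which understates changes of weakly expressed genes. The 6 genes all passed the filter, the pipeline was tested on simulated data, and 0 pairs of libraries were identical. FPKM as deposited served only for an alternative fit and for a value per library, summed FPKM over summed TPM. Relations between genes used 100000 permutations within phases (scipy 1.17.1). Where a library was left out, r was taken again from means of the remaining libraries, a change made after a first version had been seen.

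Symbols were paired with identifiers only through the supplementary tables of the study, which gave 3700 pairs and were held in part. The 6 genes and the lists were chosen with earlier results of these data known. Genes named beside them were those of the lists that passed the test, the 3 of smallest p in each list, partners such as SREBF2, SCAP and INSIG2, and the 10 genes most like the sterol genes or SREBF1. Some genes named by this rule are not reported here. Alternatives were other scalings, pseudocounts, filters and variance models, library weights, a replicate block, that value as a covariate, and leaving out each library. Promoters were taken from RefSeq (GRCr8).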

Additional observations from a re-analysis of the deposited data

Results flagged for a closer look

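In 5 of the 12 groups of 6 libraries examined (6 genes in 2 phases), 1 library lay farther from the rest than Dixon's limit for 6 values allows, measured as its distance to the nearest library over the range of the group. All 5 were light replicate 2, where chance alone gives about 1 in 20 groups, or 0.6 of 12, and the genes are not independent of each other. The distance over the range was 0.791 for SREBF1, in which the library was high, and, in genes in which it was low, 0.842 for SQLE, 0.827 for INSIG1, 0.801 for HMGCS1 and 0.780 for FDPS. MSMO1, at 0.613, stayed under the limit. In the dark phase no library passed it.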

How the results depend on the processing

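With all libraries 0 of the 6 genes and 2217 of all genes passed the test. The counts for the 6 genes were 3 with library weights (2427 of all genes) and 2 with summed FPKM over summed TPM as a covariate and light replicate 2 left out. The count was 5 with a replicate block and light replicate 2 left out (1528 of all genes). The latter 2 settings were chosen after the data had been seen. The covariate, which moved with the phase, gave 344 genes in all, and 131 with light replicate 2 left out. Leaving out 1 library at a time gave 0 to 6 of the 6 genes, 1697 to 2239 genes in all, a median ratio of SDs of 1.23 to 5.85 (5.19 with all libraries) and a median absolute r of 0.518 to 0.951 (0.937 with all libraries), and the extremes 6, 1.23 and 0.518 came from light replicate 2 left out. Of the paired list genes, the 6 described genes included, 7 were higher in the dark phase (3 with the covariate, 1 with it and light replicate 2 left out, 5 to 7 with 1 library left out) and 2 in the light phase (0 with the covariate, 1 with it and light replicate 2 left out, 5 with library weights, 1 with a replicate block, 8 with the block and light replicate 2 left out, 2 to 10 with 1 library left out).

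Under the covariate the log2 fold change reversed for SREBF1 (-0.0035), MSMO1 (0.19), HMGCS1 (0.34) and INSIG1 (0.27), none of which passed the test. With the covariate and light replicate 2 left out, SREBF1 was at 0.35 (limma FDR = 0.0494) and INSIG1 at -0.62 (FDR = 0.0461). FDPS, at 0.0036 with all libraries, turned to -0.12 with the covariate and light replicate 2 left out, -0.10 with library weights and -0.16 with a replicate block and light replicate 2 left out. With 1 library left out it ranged from -0.17 to 0.053, negative without light replicate 2 (-0.17), dark replicate 1 (-0.0043), dark replicate 4 (-0.0012) or dark replicate 6 (-0.014). The cause of these changes was not tested. Deviations of light and dark libraries of the same number were correlated by -0.11 to 0.047, and 0 light libraries were closest to their own number. These values show no pairing by number, but cannot tell whether rats were handled in numbered pairs. The replicate block alone gave 1599 genes in all and 0 of the 6. Other scalings, pseudocounts, filters, variance models and FPKM in place of TPM left the counts within 1.5 times those given.

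The results are limited by a single time point per phase, by the list symbols, of which only 31 of 87 had an identifier, and by read counts behind each value that are not known. Both light replicate 2 and the covariate that moved with the phase change how many of the 6 genes pass the test.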
